A study of Rattus norvegicus with 11 samples.

Results

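Thick ascending limb (TAL) cells of the rat kidney were taken as the cells to which the authors' deposited table gives the name TAL, leaving out those named TAL/MD (thick ascending limb with macula densa). They numbered 2009 of 114615 cells (1.75%), and TAL ranked the 14th most frequent of 21 cell type names. The cells came from 11 male ZSF1 rats, each profiled as 1 droplet single-cell RNA library. The 4 lean rats and the 4 obese rats were given no treatment by their labels, and a further 3 obese rats drank enalapril, an inhibitor of angiotensin-converting enzyme, in their water. The protocol says that untreated obese rats drank the vehicle and does not say so of the lean rats. All 11 animals carry the same genotype label, ZSF1-LeprfaLeprcp/Crl, were 12 weeks old on arrival and ate the same high energy chow at will. The enalapril concentration was adjusted weekly to body mass and water intake. Lean and obese are given as the phenotype, obese ZSF1 rats being a model of diabetic kidney disease without a working leptin receptor. The labels read here state neither the enalapril dose nor the age at tissue collection.

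The TAL follows the thin limbs of the loop of Henle. Its cells take up sodium, potassium and chloride from the tubule fluid through the cotransporter NKCC2, encoded by Slc12a1, and are nearly impermeable to water, so that the fluid leaving them is dilute and the medulla around them becomes concentrated. They are the target of loop diuretics and the source of uromodulin (Umod), the most abundant protein of normal urine. The transport is driven by the sodium pump at the cost of much ATP, and TAL cells are among the cells of the kidney richest in mitochondria. At the end of the TAL lie the macula densa cells, which sense salt and control renin release, and beyond them the distal convoluted tubule (DCT).

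The table holds, for each cell, the number of unique molecular identifiers (UMIs, counted RNA molecules), the number of genes detected, the share of UMIs from mitochondrial genes, cell cycle scores and a position on a 2-dimensional map. Gene values were not analysed here, so the name could not be checked against Slc12a1 or Umod. The animals gave 4232 to 18427 cells each, of which 100 to 267 were TAL cells. Of 112971 distinct cell barcodes, 1634 occurred in 2 or more libraries, with at most 85 shared by any pair, and 51 TAL cells carried such a barcode. None of these 51 shared it with a TAL cell of another library. Lean rat 2 stood apart before any comparison, since its deepest cell had 1703 UMIs against 8386 or more in the other 10 animals, and its shallowest TAL cell had 213 against 476 or more. Most animals share the stem of their sample code with another animal of their group, and no stem spans 2 groups. The labels do not say what a stem marks. Animals with the same stem may not be independent, whereas each test took every animal as independent. The part of the stems in differences between groups was not tested.

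Most TAL cells lay together on the authors' map. Joining cells at distances up to 0.6 map units (at least 10 neighbours), a rule chosen after the map was seen, put 1671 cells (83.2%) in 1 large group drawn from all 11 animals. Of the 20 nearest cells around each of them, 81.5% were also named TAL and 13.9% were named TAL/MD. The other 338 cells (16.8%) lay elsewhere. Smaller groups of 167, 52 and 26 cells, 245 in all, sat within the proximal tubule, where 81.0% of the cells nearest to the 167 were named PCT/PST (a joint name for convoluted and straight proximal tubule). Of the cells nearest to the 52 and to the 26, 96.7% and 98.3% were named PCT (convoluted proximal tubule). These positions go against the TAL name for those cells. A further 2 groups held 28 and 26 cells. TAL made up 85.7% of the cells around the 28, the rest being macrophages, and 99.8% of those around the 26, and the nearest cells not named TAL were macrophages for all 28 and T cells for all 26. Of these 54 cells, 50 came from obese rat 4. The remaining 39 cells fell in no group.

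**Figure D1:**
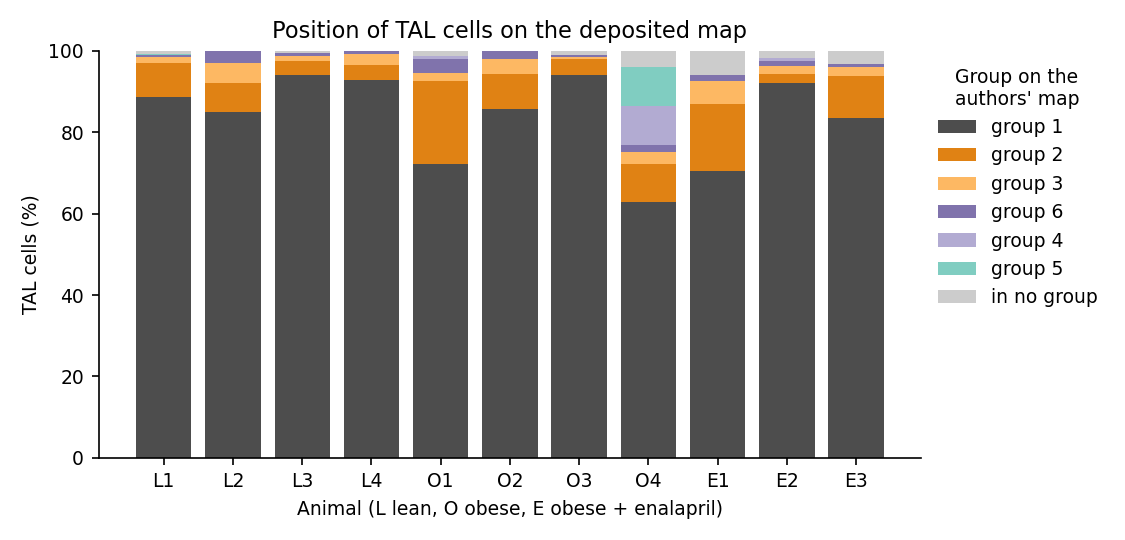
Percent of the TAL cells of each animal in each group on the deposited map, 1 stacked bar per animal. Group 1 holds 62.8% to 94.1% of the cells, groups 2, 3 and 6 lie among proximal tubule cells, and groups 4 and 5 are nearly all from obese rat 4.

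The large group held 88.7%, 85.0%, 94.1% and 92.8% of the TAL cells of lean rats 1 to 4. In obese rats 1 to 4 it held 72.1%, 85.7%, 94.0% and 62.8%, and in treated rats 1 to 3 it held 70.6%, 92.1% and 83.5%. The groups of animals overlapped, and obese rat 4 had the lowest value. TAL cells outside the large group had more UMIs than those inside it in 11 of 11 animals, with pooled medians of 1479 and 905. The cells near proximal tubule had a median of 1616 UMIs, whereas the 54 cells of the pair of groups from obese rat 4 had a median of 607.5. No label or header says how doublets or free RNA were treated, and their part in these positions was not tested.

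TAL cells made up 1.19% to 2.39% of the kidney cells of an animal. They were 2.39%, 2.36%, 1.99% and 2.13% of all cells in lean rats 1 to 4. In obese rats 1 to 4 they were 1.36%, 1.99%, 1.72% and 1.40%, and in treated rats 1 to 3 they were 1.19%, 2.33% and 1.63%. The obese animals all lay below the lean ones, but obese rat 2 (1.985%) and lean rat 3 (1.987%) were next to equal, and their exact 95% Clopper-Pearson intervals, which cover counting error only, were 1.67% to 2.34% and 1.69% to 2.32%. Treated rats spanned both other groups.

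Lean rats averaged 2.22% ± 0.191 and untreated obese rats 1.62% ± 0.296 (SD, n = 4 each), while treated rats averaged 1.72% ± 0.575 (SD, n = 3). edgeR's quasi-likelihood test, run over 20 cell types with the animal as the replicate and adjusted by the Benjamini-Hochberg method, did not call TAL between obese and lean rats (log2 fold change -0.46 ± 0.36 SE, adjusted p = 0.269). In that comparison 60% of the types tested were called, 30% as lower, and TAL ranked the 16th of 20 by p. Over cells under 20% mitochondrial TAL was called lower (-1.47, edgeR adjusted p = 0.0145), and over cells of at least 5% the difference was 0.23. These bounds select on a measure that itself differed between the groups. A share within 1 library cannot tell fewer cells from fewer cells recovered or named. TAL was not called between treated and untreated obese rats (0.09 ± 0.38, adjusted p = 0.821), where edgeR called 0.0% of the types, 2 of 20 having an unadjusted p under 0.05 and 1 being called by DESeq2. Nor was it called between treated obese and lean rats (-0.37 ± 0.39, adjusted p = 0.503), where 15.0% were called. The comparisons share animals pairwise.

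A share of all cells falls when another type becomes more frequent, and immune cells were 31.3% to 37.9% of all cells in untreated obese rats, 7.75% to 19.5% in lean rats and 14.6% to 21.6% in treated rats. Among non-immune cells alone, TAL made up 2.90%, 2.56%, 2.47% and 2.34% in lean rats 1 to 4. It made up 1.97%, 3.20%, 2.64% and 2.11% in obese rats 1 to 4, and 1.40%, 2.81% and 2.08% in treated rats 1 to 3. On this base all groups overlapped. Lean rats averaged 2.57% ± 0.237 and obese rats 2.48% ± 0.557 (SD, n = 4 each), and the treated rats 2.10% ± 0.709 (SD, n = 3). The difference between obese and lean rats was -0.05 ± 0.33 (log2, edgeR adjusted p = 0.878), the largest p of the 15 types tested, of which 20% were called. It was -0.87 in cells under 20% mitochondrial (edgeR adjusted p = 0.0715) and 0.52 in those of at least 5%. Treated rats differed by -0.24 ± 0.36 from untreated obese rats (edgeR adjusted p = 0.960), with 0.0% of types called and 1 of 15 at an unadjusted p under 0.05. From lean rats they differed by -0.29 ± 0.36 (edgeR adjusted p = 0.584), with 20% called.

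**Figure D2:**
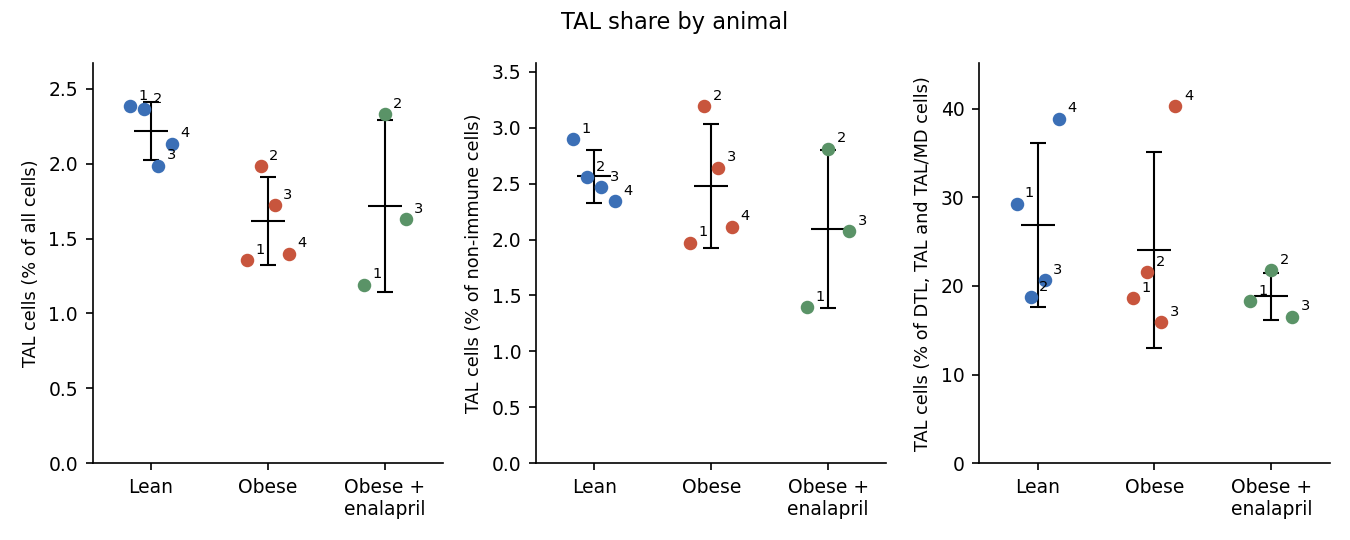
TAL cells as a percent of all cells, of non-immune cells and of the cells named DTL, TAL or TAL/MD, with 1 numbered point per animal and the mean ± SD of each group. Obese animals lie just below lean ones for all cells only, and the groups overlap on both other bases.

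Within the loop of Henle cells, TAL stood beside the descending thin limb (DTL) and TAL/MD, and was outnumbered by TAL/MD in 11 of 11 animals. It made up 29.3%, 18.7%, 20.6% and 38.9% of these cells in lean rats 1 to 4. The values were 18.6%, 21.6%, 15.9% and 40.3% in obese rats 1 to 4 and 18.3%, 21.7% and 16.5% in treated rats 1 to 3. Lean rat 4 and obese rat 4 were the highest of their groups, and TAL/MD made up the lowest share of all cells of their groups there (2.71% and 1.47%). The group means were 26.9% ± 9.22 for lean and 24.1% ± 11.1 for obese rats (SD, n = 4 each), and 18.9% ± 2.65 with enalapril (SD, n = 3). TAL was not called by edgeR in the loop in any of the 3 comparisons, with -0.16 ± 0.32 between obese and lean rats (adjusted p = 0.633), where 23.5% of 17 types were called within their compartments, 5.88% as lower. Against untreated obese rats the treated rats differed by -0.34 ± 0.34 (edgeR adjusted p = 0.480, with 5.88% called, all lower), and against lean rats by -0.50 ± 0.35 (edgeR adjusted p = 0.301, with 29.4% called). In the first of the 3, the other loop types were called, DTL as higher (1.64 ± 0.35, edgeR adjusted p = 0.00694) and TAL/MD as lower (-0.55 ± 0.15, edgeR adjusted p = 0.0169). Shares within the loop sum to the whole, so these calls are not separate results. TAL/MD was not called between obese and lean rats among non-immune cells (-0.40 ± 0.47, edgeR adjusted p = 0.610) or all cells (-0.81 ± 0.46, edgeR adjusted p = 0.133).

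Whether TAL and TAL/MD moved apart was tested on their ratio. There were 0.506, 0.243, 0.314 and 0.789 TAL cells per TAL/MD cell in lean rats 1 to 4. The ratios were 0.497, 0.522, 0.321 and 0.956 in obese rats 1 to 4, and 0.311, 0.364 and 0.271 in treated rats 1 to 3. The log2 ratio differed by 0.35 between obese and lean rats (exact two-sided permutation p = 0.457, adjusted p = 0.549 over 18 such tests). With these group sizes no adjusted p over the 18 tests could fall under 0.05, whatever the values. It differed by -0.76 between treated and untreated obese rats (exact permutation p = 0.114, adjusted p = 0.294). The difference between treated and lean rats was -0.41 (exact permutation p = 0.457, adjusted p = 0.549). With 1 animal left out these differences ran from 0.064 (without obese rat 4) to 0.65 (without lean rat 4), from -1.002 to -0.48 and from -0.67 to -0.11. The groups overlapped in all 3, so the unequal calls of the TAL and TAL/MD shares within the loop do not show that the pair differed.

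The ratio of TAL to DCT cells, the next segment, did separate the groups. It was 0.422, 0.402, 0.569 and 0.336 in lean rats 1 to 4, 1.08, 1.20, 1.02 and 2.77 in obese rats 1 to 4, and 1.00, 1.22 and 0.934 in treated rats 1 to 3. Every obese animal, treated or not, lay above every lean one. The log2 ratio was 1.70 higher in obese than in lean rats (exact two-sided permutation p = 0.0286, the smallest that 4 against 4 animals allow, adjusted p = 0.257). It was 1.30 higher in treated obese than in lean rats (exact permutation p = 0.0571, the smallest that 3 against 4 allow, adjusted p = 0.257). No adjusted p over the 18 tests could fall under 0.05 with these group sizes, so the adjustment decides nothing about either difference. Treated and untreated obese rats differed by -0.40 (exact permutation p = 0.400, adjusted p = 0.549) and overlapped. Among non-immune cells DCT was called lower in obese rats (-1.65 ± 0.41, edgeR adjusted p = 0.0103) and TAL was not, as given above.

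TAL cells were shallow. Their median UMIs per cell were 824.5, 265, 1113 and 815 in lean rats 1 to 4. The medians were 1229, 995.5, 1271 and 810.5 in obese rats 1 to 4 and 767.5, 1287 and 1539 in treated rats 1 to 3. In 11 of 11 animals this was below the median of TAL/MD, of DTL, of DCT and of all cells of the animal. TAL/MD cells held 1.43 to 4.31 times as many UMIs as TAL cells of the same animal, a description with no test, since the names were drawn from the genes of these cells. Over all animals, TAL had the second lowest median UMIs of the 21 types (946) and a median of 493 genes, against 2979.5 UMIs and 1098.5 genes in TAL/MD.

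Many TAL cells sat close to the lowest UMI number kept. Outside lean rat 2, between 3.94% and 26.0% of an animal's TAL cells had under 600 UMIs, and between 0% and 3.35% of its TAL/MD cells did. In lean rat 2, 100% of TAL cells and 98.1% of TAL/MD cells lay under 600. TAL cells just below the lowest number kept are not in the table, and their part in the TAL shares was not tested.

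**Figure D3:**
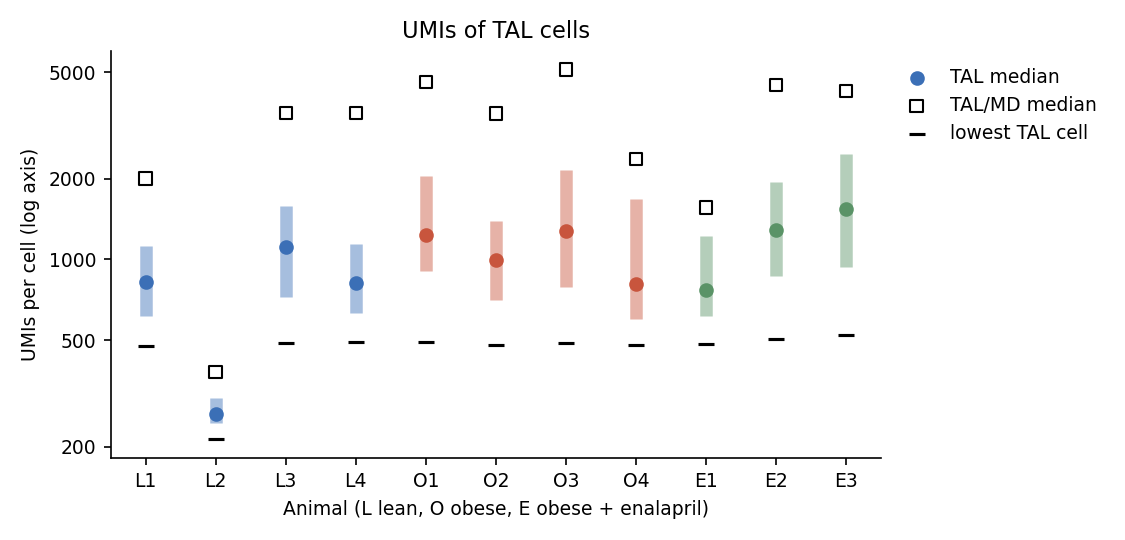
UMIs per TAL cell in each animal on a log axis, with the median (filled circle), the range from the 25th to the 75th percentile (bar) and the lowest cell (dash), and the TAL/MD median (open square). TAL medians lie under TAL/MD medians in 11 of 11 animals, and lean rat 2 lies apart, with a TAL median of 265.

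Group differences in the depth of TAL cells did not pass. Median UMIs averaged 754 ± 354 for lean and 1077 ± 215 for obese rats (SD, n = 4 each), and 1198 ± 393 with enalapril (SD, n = 3). In limma's test over 18 types, obese and lean rats differed by 0.67 ± 0.51 on the log2 scale (adjusted p = 0.363), and the median over all types was 0.80. Without lean rat 2 the TAL difference was 0.22, with an adjusted p of 0.846. Genes per TAL cell averaged 432 ± 162 for lean and 515 ± 76.2 for obese rats (SD, n = 4 each), and 527 ± 79.7 with enalapril (SD, n = 3). This was a log2 difference of 0.35 ± 0.41 between obese and lean rats (limma adjusted p = 0.518). Treated and untreated obese rats differed by 0.12 ± 0.55 in log2 UMIs (limma adjusted p = 0.927) and 0.03 ± 0.44 in log2 genes (limma adjusted p = 0.940). Against lean rats the treated rats differed by 0.79 ± 0.55 (limma adjusted p = 0.687) and 0.38 ± 0.44 (limma adjusted p = 0.833). Without lean rat 2, the log2 difference in genes between obese and lean rats was 0.0035, and treated and lean rats differed by 0.34 in log2 UMIs and 0.037 in log2 genes. For UMIs and for genes, limma called 0.0% of the 18 types in each of the 3 comparisons, and at most 2 types had an unadjusted p under 0.05.

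Genes were also compared within a window of total UMIs, which does not match the mitochondrial share of those UMIs. Among TAL cells with 1000 to 2000 UMIs the median was 595, 629.5 and 674.5 genes in lean rats 1, 3 and 4, lean rat 2 having 0 such cells. It was 562, 534, 642 and 594.5 in obese rats 1 to 4 and 624, 581 and 565.5 in treated rats 1 to 3. The mean difference between obese and lean rats was -49.9 genes, and the groups overlapped (exact two-sided permutation p = 0.229, adjusted p = 0.411). It was 7.04 genes between treated and untreated obese rats (exact permutation p = 0.857, adjusted p = 0.908). Between treated and lean rats it was -42.8 genes (exact permutation p = 0.200, where 3 against 3 animals cannot go below 0.1, adjusted p = 0.400).

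The mitochondrial share of TAL cells was higher in each obese animal than in any lean one, although the difference missed the threshold. Its median per animal was 16.6%, 0%, 15.0% and 1.71% of UMIs in lean rats 1 to 4. The medians were 29.2%, 38.5%, 29.9% and 17.6% in obese rats 1 to 4, of which the lowest, rat 4, was close to the highest lean animals. Treated rats 1 to 3 had 7.51%, 31.4% and 35.4%, with treated rat 1 in the lean range and the other two in the obese range. The group means were 8.33% ± 8.69 for lean and 28.8% ± 8.60 for obese rats (SD, n = 4 each), and 24.8% ± 15.1 with enalapril (SD, n = 3).

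The difference between obese and lean rats was 20.5 ± 6.59 percentage points. It did not pass limma's test after adjustment over 18 types (adjusted p = 0.0893), although TAL ranked the 2nd of 18 by p, behind DCT. Of the types, 5.56% were called, and 18 of 18 had a higher estimate in obese rats, with a median of 4.33 points. Leaving out treated rat 1, which enters only through the shared spread, gave the same difference with an adjusted p of 0.0148, and leaving out obese rat 4 gave 24.2 points (adjusted p = 0.0413). Over all fits with 1 animal left out the adjusted p ran from 0.0148 to 0.302, and the difference was 17.7 points without lean rat 2. Treated obese rats lay 16.4 ± 7.12 points above lean rats (limma adjusted p = 0.372) and differed by -4.05 ± 7.12 points from untreated obese rats (limma adjusted p = 0.697). Types called in these comparisons were 5.56% and 0.0%, with 1 of 18 at an unadjusted p under 0.05 in the latter. With TAL and TAL/MD pooled, the mitochondrial share of obese and treated rats lay 11.8 and 3.43 points above that of lean rats. Without treated rat 1, and with TAL not pooled, treated rats lay 25.04 points above lean rats (limma adjusted p = 0.0149). In that fit they lay 4.57 points above untreated obese rats (limma adjusted p = 0.980).

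The spread of single cells showed the same order. TAL cells under 10% mitochondrial UMIs made up 37.6%, 94.0%, 38.6% and 76.8% of TAL cells in lean rats 1 to 4. They made up 11.6%, 5%, 16.6% and 23.3% in obese rats 1 to 4 and 60.7%, 13.1% and 6.30% in treated rats 1 to 3. The difference of -47.6 points between obese and lean rats had no overlap (exact two-sided permutation p = 0.0286, adjusted p = 0.257). No lower p was possible with 4 against 4 animals, and no adjusted p under 0.05. Treated rats overlapped both groups, with 12.6 points against untreated obese rats (exact permutation p = 0.629, adjusted p = 0.707) and -35.0 points against lean rats (exact permutation p = 0.171, adjusted p = 0.386). Over all cells of an animal the share under 10% was 49.3% to 80.6% in lean rats, 37.3% to 48.8% in obese rats and 27.4% to 75.2% in treated rats, so that obese rats lay below lean rats there too. At the other end, cells over 30% made up 30.1%, 0%, 29.4% and 10.9% in lean rats, 49.7%, 79.3%, 49.7% and 22.5% in obese rats and 8.41%, 55.4% and 66.9% in treated rats. The TAL cells of lean rats 1 and 3 thus spread over the whole range, while those of lean rats 2 and 4 gathered near 0. Of all TAL cells 131 had no mitochondrial UMI, 77 of them among the 100 cells of lean rat 2. The table itself ends just under 50%, and 9.41% of TAL cells had at least 45%, against 6.68% of TAL/MD and 2.43% of all cells.

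**Figure D4:**
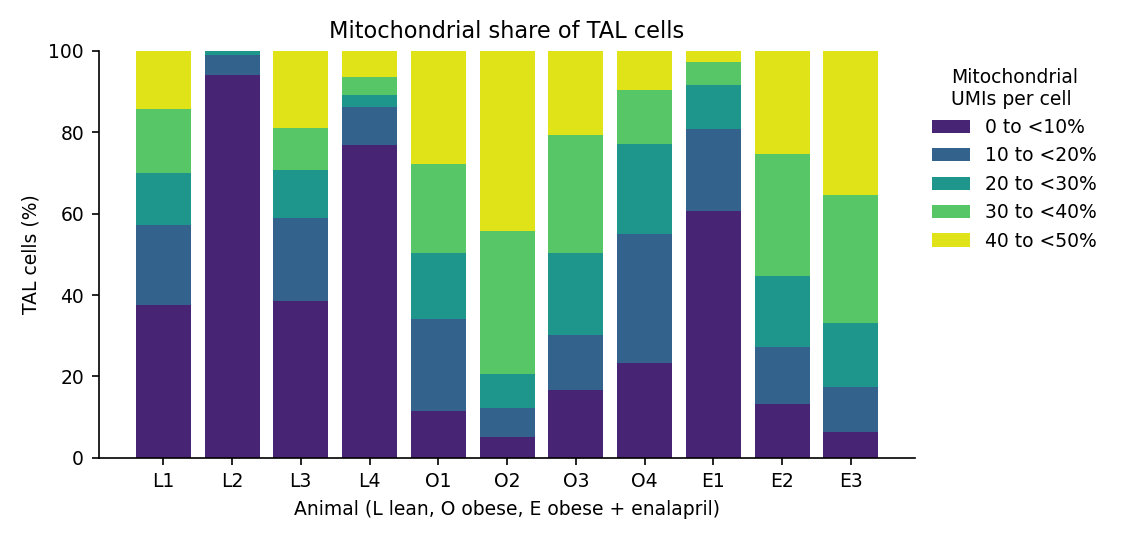
Percent of TAL cells of each animal by the mitochondrial share of their UMIs, in 5 classes of 10 points. The class under 10% holds 37.6% to 94.0% of the cells in lean rats, 5% to 23.3% in obese rats and 6.30% to 60.7% in treated rats.

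Mitochondrial UMIs per TAL cell were called as higher in obese than in lean rats, a call that rested on single animals. A TAL cell held a median of 139, 0, 155 and 14 mitochondrial UMIs in lean rats 1 to 4, 341, 349.5, 329 and 152.5 in obese rats 1 to 4, and 75.5, 396 and 485 in treated rats 1 to 3. Lean rat 3 (155) reached just above obese rat 4 (152.5), and all other obese animals lay above all lean ones. On the log2(median + 1) scale obese rats were 3.54 ± 1.19 above lean rats, and this was called by limma (adjusted p = 0.0308). For this measure limma gave the 18 types the same spread, so the SE and the call do not rest on the spread of TAL alone. Of 18 types 11.1% were called, TAL and DCT. The call was kept in 4 of 11 fits with 1 animal left out. It was lost without lean rat 2 or 4, obese rat 1, 2 or 3, or treated rat 1 or 3, and without lean rat 2 the difference was 2.02 (adjusted p = 0.165). With the replicate number of the labels as a block the adjusted p was 0.0537. Treated rats lay 3.36 ± 1.29 above lean rats (limma adjusted p = 0.0900, with 5.56% of types called; 1.00 with TAL and TAL/MD pooled and 1.71 in cells of at least 500 UMIs) and differed by -0.19 ± 1.29 from untreated obese rats (limma adjusted p = 0.937).

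Other UMIs per TAL cell had medians of 638, 262, 819 and 758.5 in lean rats 1 to 4, 869, 627, 955 and 677.5 in obese rats 1 to 4, and 723, 866 and 970 in treated rats 1 to 3. The groups overlapped, and the log2 difference between obese and lean rats was 0.44 ± 0.48 (limma adjusted p = 0.477). Treated rats differed from untreated obese rats by 0.14 ± 0.52 (limma adjusted p = 0.968) and from lean rats by 0.58 ± 0.52 (limma adjusted p = 0.665). Without lean rat 2 the differences from lean rats were 0.069 for obese and 0.21 for treated rats.

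Within animals, UMIs and mitochondrial share were related unevenly over TAL cells. Spearman's rho was 0.449, 0.299, 0.563 and 0.199 in lean rats 1 to 4, 0.0697, 0.0372, 0.405 and 0.283 in obese rats 1 to 4, and -0.282, 0.127 and 0.0239 in treated rats 1 to 3. These are descriptions over 100 to 267 cells of 1 library each, and both measures contain the mitochondrial UMIs.

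TAL/MD cells of the same animals served as the nearest comparison. Their median mitochondrial share was 25.4%, 11.4%, 25.2% and 26.9% in lean rats 1 to 4, 30.3%, 32.8%, 25.3% and 34.4% in obese rats 1 to 4, and 8.18%, 21.8% and 30.5% in treated rats 1 to 3. TAL minus TAL/MD was -8.82, -11.4, -10.2 and -25.2 points in lean rats 1 to 4. In obese rats it was -1.04, 5.75, 4.62 and -16.8 points, and in treated rats it was -0.666, 9.55 and 4.86 points. TAL thus lay below TAL/MD in 4 of 4 lean rats. Obese rat 4 lay within the lean range and the other 3 obese rats above it, and 3 of 3 treated rats lay above every lean one.

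**Figure D5:**
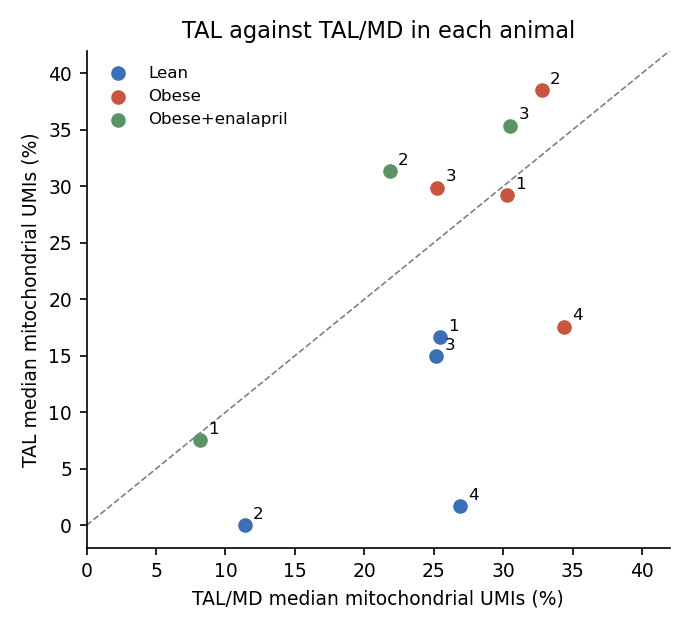
Median mitochondrial share of TAL cells against that of TAL/MD cells, 1 numbered point per animal, with the line of equality dashed. The 4 lean rats lie under the line, and the points of obese and treated rats lie on both sides of it.

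The change of that difference from lean to obese rats was 12.0 points (exact two-sided permutation p = 0.114, adjusted p = 0.294), and from lean to treated rats it was 18.5 points (exact permutation p = 0.0571, the smallest that 3 against 4 animals allow, adjusted p = 0.257). From untreated to treated obese rats it was 6.45 points (exact permutation p = 0.400, adjusted p = 0.549). No adjusted p of these tests could fall under 0.05 at these group sizes, so they do not decide whether TAL and TAL/MD differed in their change. In TAL/MD itself obese and lean rats differed by 8.45 ± 4.85 points (limma adjusted p = 0.378). TAL minus TAL/MD in log2 UMIs differed by -0.43 between obese and lean rats (exact permutation p = 0.314, adjusted p = 0.514), by 0.39 between treated and untreated obese rats (exact permutation p = 0.114, adjusted p = 0.294) and by -0.04 between treated and lean rats (exact permutation p = 0.971, adjusted p = 0.971).

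The authors' table also assigns each cell a cell cycle phase, and in such calls many resting cells fall in S or G2M. G2M was given to 15.8%, 15.0%, 21.6% and 19.6% of TAL cells in lean rats 1 to 4, to 29.3%, 20%, 22.6% and 31.0% in obese rats 1 to 4, and to 22.0%, 16.5% and 18.1% in treated rats 1 to 3. Obese rat 2 lay within the lean range. The difference of 7.74 ± 2.68 points between obese and lean rats was called by limma (adjusted p = 0.0469), as were 16.7% of the 18 types. The call was kept in 3 of 11 fits with 1 animal left out, those without lean rat 3, obese rat 2 or treated rat 2, and without lean rat 2 the difference was 6.74 points (adjusted p = 0.132). Over all cells of an animal the G2M share was 19.1% to 24.1% in lean rats and 28.6% to 33.8% in obese rats, so that it moved with the whole library. Treated rats differed by -6.87 ± 2.89 points from untreated obese rats (limma adjusted p = 0.229) and had 0.87 ± 2.89 points more than lean rats (limma adjusted p = 0.997).

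S was given to 29.7%, 7%, 28.1% and 33.3% of TAL cells in lean rats 1 to 4, to 27.2%, 30%, 32.7% and 25.2% in obese rats 1 to 4, and to 21.5%, 33.7% and 34.6% in treated rats 1 to 3. The differences were 4.23 ± 5.46 points between obese and lean rats (limma adjusted p = 0.659), 1.18 ± 5.90 between treated and untreated obese rats (limma adjusted p = 0.935) and 5.42 ± 5.90 between treated and lean rats (limma adjusted p = 0.809). Here too the SE comes from a spread that limma gave to all types. The mean G2M score differed by 0.00938 ± 0.00396 between obese and lean rats (limma adjusted p = 0.130). It was called in 1 of 11 fits with 1 animal left out, that without lean rat 2 (0.0122, limma adjusted p = 0.00505). Of 7 other settings 1 called it, that of at least 500 UMIs per cell (0.0116, limma adjusted p = 0.0212). The mean S score differed by 0.000334 ± 0.00245 between obese and lean rats (limma adjusted p = 0.926). Proliferation of TAL cells was not read from these values, since genes of the cycle were not analysed here. Lean rat 2, the shallowest library, had the lowest S share, and the part of depth in the phase calls was not tested.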

How the data were processed

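The starting point was 1 deposited table whose lines are cells. Its UMI and gene numbers are raw counts per the file headers, and the authors gave the mitochondrial share as a percent of a cell's UMIs. The authors' S and G2M columns hold scores and their map columns hold coordinates. No label or header says how these were made or how cells were filtered and named. Among tools, the submitters' processing notes list Cell Ranger 7.0.1 and Seurat 4.3.0, and as genome build rn6, with no steps. Each cell's code was matched to an animal's label, with 0 cells in conflict with the labelled group.

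The members, measures and tests were chosen with earlier results of these data known. The cell types named beside TAL are the other loop types and DCT, by a rule set with the design, and all measures of TAL are given whatever their result. Types met only in describing the map were named after its values were seen. Cells per type and animal were tested in 1 fit over the 3 groups with edgeR 4.0.16 (robust quasi-likelihood, without a trend on abundance), with all cells, non-immune cells or the cells of the compartment as total. Types with a mean under 10 cells were left out. Medians over a type's cells in an animal, where these numbered 20 or more, were tested with limma 3.58.1 over the types with 2 or more such animals in each group. For mitochondrial UMIs and the S share limma gave every type the same spread. Single values per animal were compared by exact permutation in scipy 1.17.1, adjusted over 18 tests, with 0.5 cells added to both counts of a ratio. The group sizes let no adjusted p of these 18 tests fall under 0.05. The threshold was an adjusted p of 0.05. Alternatives used DESeq2 1.42.0, limma on logit shares, other filters and left-out animals. The labels do not say how many litters or cages the animals came from. Other software was R 4.3.3, Python 3.11.15, pandas 2.3.3, numpy 2.4.6, scikit-learn 1.9.0 and matplotlib 3.10.9.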

Additional observations from a re-analysis of the deposited data

Results flagged for a closer look

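Some single animals lay far from the other 3 of their group by Dixon's criterion, which chance meets in about 1 of 20 groups, and 4 of 34 sets of 4 values did so. In obese rat 4 there were 2.77 TAL cells per DCT cell, against 1.02 to 1.20 in the other obese rats. The median mitochondrial UMIs of its TAL cells were 152.5, against 329 or more in the others. In lean rat 4 the median mitochondrial percent of TAL cells lay at -25.2 points relative to TAL/MD, whereas the other lean rats lay at -8.82 to -11.4. In lean rat 2, 100% of TAL cells had under 600 UMIs, and in the other lean rats 17.0% to 22.6% did.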

How the results depend on the processing

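Of 882 alternatives to 54 results, 783 kept their direction and their side of the threshold, 23 lost and 10 gained a call, and 66 changed sign. Part of this was fixed in advance. The 18 permutation results could not be called in any setting, and leaving out an animal of the third group leaves a limma difference unchanged. Most sign changes came from differences close to 0. Values are log2 differences unless named otherwise. The share of TAL was never called under edgeR with 1 animal left out, DESeq2, limma on logit shares, TMM, no filter on rare types, only the 2 groups compared, or only the largest map group (chosen after seeing the map). TMM was not run within compartments.

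The mitochondrial settings select cells on a measure that itself differed between groups. With cells under 20% mitochondrial, TAL was called lower among all cells in obese against lean rats (-1.47) and among non-immune cells in treated against lean rats (-1.20). With cells of at least 5%, obese against lean rats gave 0.23 among all cells, 0.52 among non-immune cells and 0.48 in the loop, and treated against lean rats gave 0.31, 0.33 and 0.19. With at least 500 UMIs per cell, which leaves 3 TAL cells in lean rat 2, obese against lean rats gave 0.29 among non-immune cells, and treated against lean rats 0.022 among all cells and 0.079 among non-immune cells. With at least 1000 UMIs these were 0.38, 0.27 and 0.28. TMM gave 0.28 for obese against lean rats among non-immune cells. Pooling TAL with TAL/MD gave a called -0.42 in the loop for obese against lean rats. Only DTL then remains beside the pooled cells in the loop, so this mirrors the DTL call and is no separate result. For treated against untreated obese rats pooling gave 0.24 in the loop, a mirror of DTL too. In that comparison it gave 0.20 among non-immune cells, -0.077 for UMIs and -0.011 for genes.

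The call of mitochondrial UMIs between obese and lean rats was lost with types of at least 10 cells (3.54, limma adjusted p = 0.0908), with animals weighted by cells (3.07), with at least 500 UMIs (1.96) and pooled with TAL/MD (1.65). The G2M share lost its call with types of at least 10 cells (7.74 points), with at least 500 UMIs (6.42 points) and pooled (4.49 points). The mean G2M score of obese against lean rats instead gained a call with at least 500 UMIs (0.0116) and without lean rat 2 (0.0122). At 500 UMIs the G2M share of treated against lean rats was -0.31 points, the S share was -2.35 points for obese and -1.21 points for treated against lean rats, and the S score was -0.0019 and -0.00154. The S score was -7.19e-05 for obese against lean rats when weighted, and -0.000886 for treated against untreated obese rats when pooled. For treated against lean rats at 500 UMIs the ratio of TAL to TAL/MD cells gave 0.015, and TAL minus TAL/MD UMIs gave 0.22, or 0.070 as means over cells. Genes at 1000 to 2000 UMIs gave -0.515 for treated against untreated obese rats as means over cells.

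With 1 animal left out, obese against lean rats ranged from -0.20 to 0.044 for the non-immune share, -0.52 to 0.061 for the loop share, 2.02 to 4.45 for mitochondrial UMIs, 17.2 to 24.2 points for the mitochondrial share, 5.97 to 9.64 points for the G2M share, -1.61 to 7.17 points for the S share and -0.00137 to 0.00198 for the S score. Treated against untreated obese rats ranged from -0.20 to 0.30 for the share of all cells, -0.50 to 0.021 for the loop share, -0.092 to 0.41 for UMIs, -0.050 to 0.16 for genes, -0.68 to 0.65 for mitochondrial UMIs, -9.36 to 4.57 points for the mitochondrial share, -4.40 to 22.8 points for cells under 10%, -9.88 to 26.7 genes within the UMI window, -1.17 to 5.41 points for the S share and -0.000802 to 0.00179 for the S score. Treated against lean rats ranged from 1.83 to 4.26 for mitochondrial UMIs, called without lean rat 1 or lean rat 3, and 11.1 to 25.04 points for the mitochondrial share. The other ranges were -0.69 to 2.07 points for the G2M share, -0.43 to 9.64 points for the S share, -0.28 to 0.25 for TAL minus TAL/MD UMIs, -0.00132 to 0.00356 for the G2M score and -0.00102 to 0.00233 for the S score. The cause of each change was not tested.

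The replicate numbers share no stated source between groups, so they were not taken as pairs. Of 10 same-numbered pairs 5 correlated over 0.1 (range -0.472 to 0.513), which does not settle whether they are pairs. With the replicate block, obese against lean rats gave 3.54 for mitochondrial UMIs (limma adjusted p = 0.0537). The block changed no other TAL call, and 8 of 11 animals correlated best with their own number, a hint from the data and not the design. It moved the types called among all cells from 3 to 5 for treated against lean rats and from 0 to 3 for treated against untreated obese rats. For obese against lean rats, 12 types were called among all cells and 6 with at least 1000 UMIs, and 7 to 13 with 1 animal left out. For treated against lean rats DESeq2 called 5. For the G2M share limma called 3 types in obese against lean rats, 1 with types of at least 10 cells and 0 with at least 500 UMIs, and for mitochondrial UMIs 2 types, 1 wherever TAL lost its call. TAL cells lie near the lowest UMI number kept, and the effect of that bound was not tested.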
